A study of Homo sapiens with 4 samples.

Results

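Exon skipping was examined in 51 genes of DNA repair and of the DNA damage checkpoint, chosen by gene symbol. The table of skipped exons held 519 events of these genes. Of these, 466 events, on 364 exons of 50 genes, reached a mean of 20 junction reads over the 4 libraries, out of 54503 such events in 9999 genes in the whole table. LIG4, the ligase of end joining, had no event. The other 53 events, in 21 of the genes, lay under the read minimum and were not tested. Each event concerns a middle exon, flanked by 2 others, that a transcript either keeps or skips. Its inclusion level, from 0 to 1, is the share that keep the exon among transcripts of these 2 forms, estimated from reads that cross the splice junctions. An exon can belong to several events with other flanking exons, and it has a level in each. Levels given below are those of 1 event and not of all transcripts of the gene. Near the read minimum, an exon of RAD51D (19.25 reads, a difference of 0.453 in the authors' deposited table) and one of OGG1 (19.75 reads, -0.054) fell just outside, and exons of OGG1 (20.75 reads, -0.069) and BRCA1 (21.25 reads, 0.377) just inside.

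The libraries came from HEK293T, a human embryonic kidney line that is widely used for transfection and is labelled 293T here. In 2 libraries the cells had received an antisense oligonucleotide (ASO) against SNORD89, a C/D box small nucleolar RNA, and in the other 2 the treatment is given as none. The ASO was an MOE gapmer, a kind of oligonucleotide that pairs with an RNA and leads RNase H to cut it. It was given at 70 nM in a lipid reagent, fresh medium followed after 24 h, and poly(A) RNA was taken at 48 h. The protocol text is the same for both groups, so whether the cells without ASO met the lipid is unknown, and a control ASO is not among the labels. The replicates are described as biological, in 1 cell line, with 2 libraries per group. The deposited table compares a first with a second set of 2 libraries without saying which set was treated, so directions below are first set against second set. SNORD89 itself cannot be read from skipped exons.

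Cells repair DNA by routes that differ with the lesion. Base excision repair removes small damaged bases, nucleotide excision repair cuts out bulky adducts, mismatch repair corrects copying errors, and double-strand breaks are joined end to end or copied from the sister chromatid by homologous recombination, while the Fanconi anaemia proteins deal with crosslinks between the strands. The kinases ATM and ATR sense the damage and, through CHEK2 and CHEK1, halt the cell cycle. Many of these genes are long, have many short exons and give well-known alternative transcripts, among them those of BRCA1, ERCC1 and CHEK1.

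The members took between 0.537% and 0.613% of the 38613055 to 43929373 junction reads of a library. Of the 293T markers looked for, VIM (3859 and 3936 reads in the first set, 5064 and 5561 in the second), CDH2 (1160 and 856, then 330 and 508) and KRT8 (23 and 32, then 34 and 50) had events in the table, and KRT18, NEFM and NEFL had none. None of 6 markers of other cell types had an event, which limits this check to what skipped exons can show. Library 2 of the second set stood apart: among 91 member events of intermediate inclusion with reads in every library, it lay farthest from the median of the 4 libraries in 40 (44.0%), against 10, 21 and 20 for the other libraries. In member events of intermediate inclusion the median gap between the libraries of 1 set was 0.0452 in the first set and 0.0900 in the second. The median absolute difference between the sets was 0.0458. Over all tested events of intermediate inclusion these values were 0.0494, 0.0876 and 0.0551. The difference between sets is one of means of 2 libraries, which vary less than single libraries, so the gaps are no direct measure for it.

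Most exons of the repair genes were kept in nearly every transcript, in both sets. A mean inclusion level above 0.95 was found for 345 of the 466 events (74.0%), against 66.1% of all tested events. Intermediate inclusion, between 0.05 and 0.95, was found for 92 (19.7%), against 24.6% of all tested events. These 92 events lay in 30 genes. POLB and RAD51D held 9 each, of 16 and 15 tested events, FANCI 9 of 28 and MUTYH 7 of 22. In 20 genes, among them PARP1, XRCC5, XRCC6, MSH6, BLM and WRN, no tested exon had an intermediate level.

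An event was called where the authors' deposited table gave it an FDR under 0.05 and a difference in inclusion level of at least 0.1. This held for 8 of the 466 member events (1.72%), against 2.71% of all tested events. Of the 8, 2 were higher in the first set (background 1.34%) and 6 were lower there (background 1.37%). A difference of at least 0.1 at any p was found for 21 members (4.51%), against 7.13% of all tested events. All 8 calls were of intermediate inclusion, which gives 8 of 92 such members (8.70%), against 11% of all such events. No test was made of these shares. The calls were shallow, with a median of 36.1 reads per library against 184.6 for members not called. The 8 calls rested on 6 skipping junctions, and 6 of the 8 had no skipping read in library 2 of the second set. They fell on 6 genes: CHEK1 and ATR of the checkpoint, BRCA1 and BRCA2 of homologous recombination, and POLB and APEX1 of base excision repair. No event was called in the Fanconi anaemia (96 events), nucleotide excision (53), RecQ helicase (35), end joining (29), break sensing (20) or mismatch repair (15) genes.

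A quasi-binomial test was also run, whose error is mostly the scatter among libraries pooled over events. By this test 0 members had an adjusted p under 0.05, with 10 of 466 (2.15%) at an unadjusted p under 0.05. Over all tested events 1 passed the adjusted threshold (0.00183%) and 2.93% the unadjusted one. The lowest adjusted p of a member by this test was 0.865. In limma, fitted to log2 ratios of the reads for the forms with and without the exon, 0 members passed the adjusted threshold and 28 (6.01%) the unadjusted one. On simulated data limma found 0 of 200 changed events, so its 0 here carries no information on the number of changed exons. With 2 libraries against 2, an exact permutation test of a single exon cannot go below p = 0.333. Of the 92 members of intermediate inclusion, 29 (31.5%) had levels that did not overlap between the sets, against 33.3% of all such events.

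**Figure D1:**
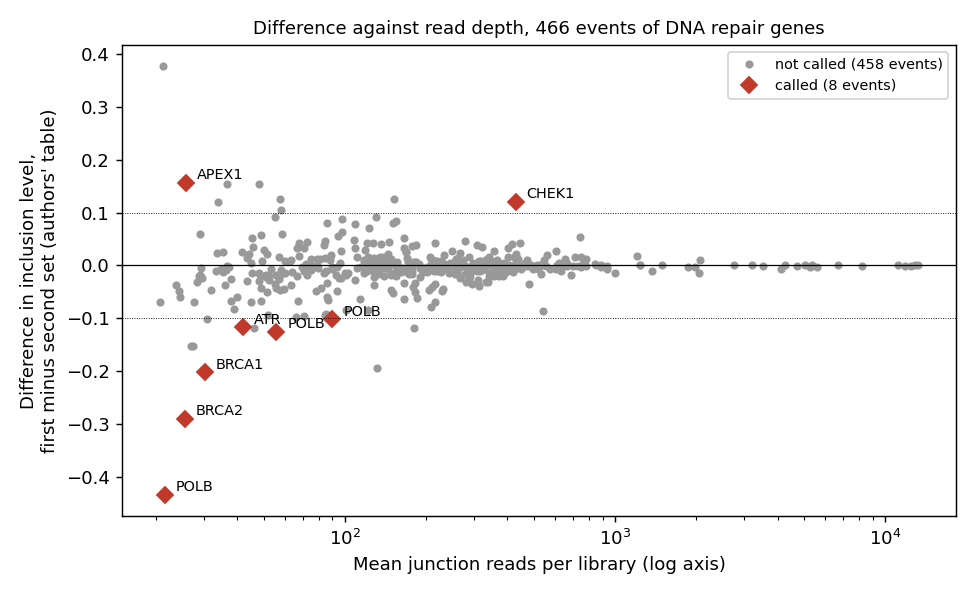
Difference in inclusion level between the sets (first minus second, from the authors' deposited table) against the mean junction reads per library on a log axis, 1 point for each of the 466 member events; diamonds are the 8 called events and dotted lines mark a difference of 0.1 either way. CHEK1 is the called event with the most reads (429.75 per library), and the other 7 lie at or under 90.0 reads.

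Checkpoint genes were tested on 45 events, 2 of them called, and CHEK1 held the deepest call among the members. CHEK1 (ENSG00000149554.8) encodes the kinase Chk1, which ATR activates when replication stalls. Its called exon, chr11:125497502-125497725 (hg19, plus strand), is coding and is exon 3 of 13 in the matched transcript. Its sequence is shown because it is the best covered call; capitals mark the 224 nt of the skipped exon and lower case the 12 nt of the exon on either side (GENCODE 29 transcript, sense strand):
CHEK1 exon 3: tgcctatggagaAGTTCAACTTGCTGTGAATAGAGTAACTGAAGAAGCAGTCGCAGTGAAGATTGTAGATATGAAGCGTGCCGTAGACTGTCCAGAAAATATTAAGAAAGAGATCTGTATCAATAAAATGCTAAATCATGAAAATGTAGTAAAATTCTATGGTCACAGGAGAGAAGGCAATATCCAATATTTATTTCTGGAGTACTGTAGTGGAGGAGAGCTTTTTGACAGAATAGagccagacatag

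In the first set CHEK1 exon 3 had 524 inclusion and 30 skipping reads in library 1, for a level of 0.897 (95% Wilson interval 0.858 to 0.926), and 405 and 45 in library 2, for 0.818 (0.768 to 0.859). In the second set it had 290 and 46 reads, for 0.759 (0.698 to 0.811), and 316 and 63, for 0.715 (0.657 to 0.767). Both libraries of the second set were lower than both of the first, but the interval of library 1 of the second set overlapped that of library 2 of the first. The authors' deposited table lists a difference of 0.12 at FDR 0.00278. The quasi-binomial test gave p = 0.0105, adjusted p = 0.865, and limma p = 0.208. Without library 2 of the second set the difference was 0.0986, and without library 1 of the first set 0.0811, both under the threshold of 0.1. Without division of the reads by the length of each form it was 0.0745, also under the threshold and smaller by over 1.5 times. Removing the 224 nt shifts the reading frame, and the first stop of the shifted frame is codon 29, against 476 codons in the full form. Background to this is that a shorter Chk1 form that arises by skipping of this early exon, and starts at a later codon, has been described as an inhibitor of Chk1.

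A non-coding exon of CHEK1, 130 nt at chr11:125526101-125526230, had an opposite difference of -0.119 (FDR 0.278 in the authors' deposited table) and was not called. Its levels were 0.681 and 0.609 in the first set against 0.665 and 0.862 in the second, so library 2 of the second set alone was high; without it the difference was -0.0194.

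ATR (ENSG00000175054.10) encodes the kinase that is recruited to single-stranded DNA at stalled forks. Its called exon, chr3:142279105-142279296 (hg19, minus strand), is coding, exon 6 of 47, and 192 nt long, and its loss keeps the reading frame. It is shown as the contrast to CHEK1, a call that keeps the frame and rests on very few reads in the second set (capitals and flanks as above):
ATR exon 6: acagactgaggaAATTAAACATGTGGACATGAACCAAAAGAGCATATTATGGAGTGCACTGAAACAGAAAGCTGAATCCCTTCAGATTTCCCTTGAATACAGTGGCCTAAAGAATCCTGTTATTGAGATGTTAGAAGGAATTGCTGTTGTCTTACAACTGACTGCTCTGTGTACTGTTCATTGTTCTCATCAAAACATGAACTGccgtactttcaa
The inclusion and skipping reads were 96 and 9 in library 1 and 49 and 2 in library 2 of the first set, for levels of 0.842 (0.732 to 0.913) and 0.925 (0.767 to 0.979). In the second set no skipping read was seen beside 5 and 7 inclusion reads, which gives levels of 1 (0.394 to 1) and 1 (0.477 to 1). All 4 intervals overlapped. The authors' deposited table lists a difference of -0.117 at FDR 0.0261, and the quasi-binomial p was 0.501. Without library 1 of the first set the difference was -0.0755, and without library 2 of that set -0.158. Without the correction for form lengths it was -0.0625, so this call too depended on these choices.

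CHEK2, the effector kinase of ATM, had 14 tested events and no call. Its deepest exon of intermediate inclusion was 87 nt at chr22:29092889-29092975, coding and frame-keeping. The levels were 0.845 and 0.876 in the first set against 0.797 and 0.882 in the second, from 367 to 541 reads, so the sets overlapped (difference 0.021, FDR 1 in the authors' deposited table). CHEK2 has near-identical pseudogene copies of its later exons, so reads there may be shared and this value is uncertain. A pair of rarely used forms of another CHEK2 exon, 129 and 93 nt long, share 1 skipping junction with 212, 170, 184 and 193 reads. The 129 nt form had levels of 0.0683, 0.0890, 0.0779 and 0.0839, and the 93 nt form 0.0752, 0.0548, 0.0627 and 0.0428, in the order first set, then second set. For TOPBP1, which activates ATR, the authors' deposited table lists a coding exon of 162 nt at FDR 0.0384, with a difference of only 0.027. That TOPBP1 exon was at 1 and 0.997 in the first set and at 0.978 and 0.964 in the second, on 552 to 648 reads (quasi-binomial p 0.0256, unadjusted). The largest difference among the 7 ATM events was 0.119 (FDR 1 in the authors' deposited table), on a non-coding exon that had 7 and 16 reads in the second set.

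Homologous recombination genes were tested on 66 events, with 2 calls, both lower in the first set. BRCA1 (ENSG00000012048.15) encodes the ubiquitin ligase subunit that promotes end resection. Its called exon is 77 nt long, at chr17:41247863-41247939 (minus strand, coding). The inclusion and skipping reads were 55 and 14, then 29 and 7, in the first set, and 9 and 1, then 6 and 0, in the second. The levels of 0.721 (0.592 to 0.822) and 0.732 (0.550 to 0.859) faced 0.856 (0.493 to 0.973) and 1 (0.507 to 1). The levels did not overlap but their intervals did. The authors' deposited table lists -0.202 at FDR 0.0241, the quasi-binomial p was 0.445, and without library 2 of the second set the difference was -0.129, smaller by over 1.5 times. The skipping junction of this event, from 41246877 to 41251792, also passes over the BRCA1 exon at chr17:41249261-41249306. In another tested event the same 77 nt exon had a difference of -0.011 and was not called. Joint skipping of this exon and its neighbour is a well-known natural form of BRCA1. Another BRCA1 event, on a partly coding exon of 56 nt, had the largest positive difference of the members, 0.377 (FDR 1 in the authors' deposited table), but it had 5 reads in library 1 of the second set and none in library 2.

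BRCA2 (ENSG00000139618.10) acts in homologous recombination downstream of BRCA1. The called exon, 96 nt at chr13:32918695-32918790, is coding, exon 12 of 27, and its loss keeps the frame. The reads were 50 and 7, then 23 and 9, in the first set and 4 and 0, then 9 and 0, in the second. Inclusion stood at 0.813 (0.668 to 0.904) and 0.608 (0.423 to 0.767) against 1 (0.388 to 1) and 1 (0.588 to 1). As in ATR, the second set was at full inclusion from a handful of reads. The authors' deposited table lists -0.29 at FDR 0.00428, and the quasi-binomial p was 0.261. Without library 2 of the first set the difference was -0.187, smaller by over 1.5 times, and without library 1 of that set -0.392. Another BRCA2 exon, of 126 nt near the end of the gene, was rarely kept, at 0.0653 and 0.0486 in the first set and 0 in both libraries of the second, from 32 and 36 reads there (FDR 0.0205 in the authors' deposited table, difference 0.057).

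RAD51D had more intermediate exons for its size than any other gene of this class, 9 of 15 tested events, and no call. Its deepest one, a partly coding exon of 122 nt at chr17:33433147-33433268, had levels of 0.123, 0.254, 0.180 and 0.101 from 84 to 124 reads, so the sets overlapped. The RAD51D exon at chr17:33445520-33445638 had tested events at 0.153 (FDR 0.137) and 0.154 (FDR 0.194) in the authors' deposited table. The RAD51D event just under the read minimum, at 0.453 (FDR 0.0108), was of the same exon. RAD51C behaved otherwise: its 17 events held no intermediate exon. A non-coding 145 nt exon of RAD51C was kept at 0.0145 and 0.0197 in the first set against 0.00358 and 0.00831 in the second, from 341 to 553 reads. PALB2, which bridges BRCA1 and BRCA2, kept its 149 nt coding exon at chr16:23619185-23619333 at 0.886, 0.917, 0.860 and 0.943, listed with a difference of 0 (FDR 1) in the authors' deposited table. Another PALB2 exon, 162 nt and coding, was at 1 and 0.987 in the first set against 0.958 and 0.872 in the second (FDR 0.0317 in the authors' deposited table, difference 0.079, quasi-binomial p 0.124).

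Base excision and single-strand break repair genes were tested on 107 events, with 4 calls, of which 3 were of POLB. POLB (ENSG00000070501.7) encodes DNA polymerase beta, which fills the gap left by base removal. The 3 called exons are coding, 59 nt at chr8:42207525-42207583, 50 nt at chr8:42210037-42210086 and 105 nt at chr8:42211935-42212039. They share a single skipping junction that passes over all 3, with the same 5, 9, 1 and 0 skipping reads. The 3 calls thus set 1 measurement of skipping against 3 inclusion counts. The same exons had other tested events, none of them called. In the authors' deposited table these stood at -0.01 for the 59 nt exon, and at 0.018 and 0.003 for the 50 nt exon. For the 105 nt exon the other event stood at -0.044 (FDR 0.185).

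The 59 nt exon of POLB had 72, 82, 80 and 111 inclusion reads, and levels of 0.912 and 0.867 in the first set against 0.983 and 1 in the second. The 105 nt exon had only 11, 15, 21 and 24, and levels of 0.563 (0.319 to 0.780) and 0.494 (0.304 to 0.686) against 0.925 (0.678 to 0.986) and 1 (0.786 to 1). The sets did not overlap in any of the 3. The differences in the authors' deposited table were -0.102 (FDR 0.00137) for the 59 nt exon, -0.126 (FDR 0.00301) for the 50 nt exon and -0.434 (FDR 7.13e-05) for the 105 nt exon. The quasi-binomial p was 0.0420, 0.0930 and 0.0294 in that order. The 59 nt exon fell under the difference of 0.1 without library 2 of the first set (-0.0798) or without library 2 of the second (-0.0935). Without the correction for form lengths the 59 and 50 nt exons stood at -0.0757 and -0.0980, both under it. Another POLB skipping junction, shared by 2 events that were not called, had 5, 10, 3 and 15 reads, with library 2 of the second set the highest.

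APEX1 (ENSG00000100823.7), the endonuclease that cuts at sites that have lost a base, had 1 call, for a 36 nt form of an early exon at chr14:20923897-20923932. It had 7, 8, 1 and 0 inclusion reads, and levels of 0.173 (0.0851 to 0.319) and 0.182 (0.0938 to 0.323) against 0.0428 (0.00755 to 0.208) and 0 (0 to 0.192). The authors' deposited table lists 0.156 at FDR 0.00657, and the quasi-binomial p was 0.177. The same skipping reads, 27, 29, 18 and 13, were set against 4 APEX1 forms. The 196 nt form, with 1788 to 2227 inclusion reads, had the opposite sign, -0.014 (FDR 0.0462 in the authors' deposited table), at levels of 0.971 and 0.972 against 0.983 and 0.988. The 39 nt form also had the opposite sign, -0.152 (FDR 0.251 in the authors' deposited table), from 5, 3, 5 and 8 inclusion reads. The main early exon of APEX1, 126 nt, was kept at 0.986 to 0.994 in all libraries against the same skipping reads.

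**Figure D2:**
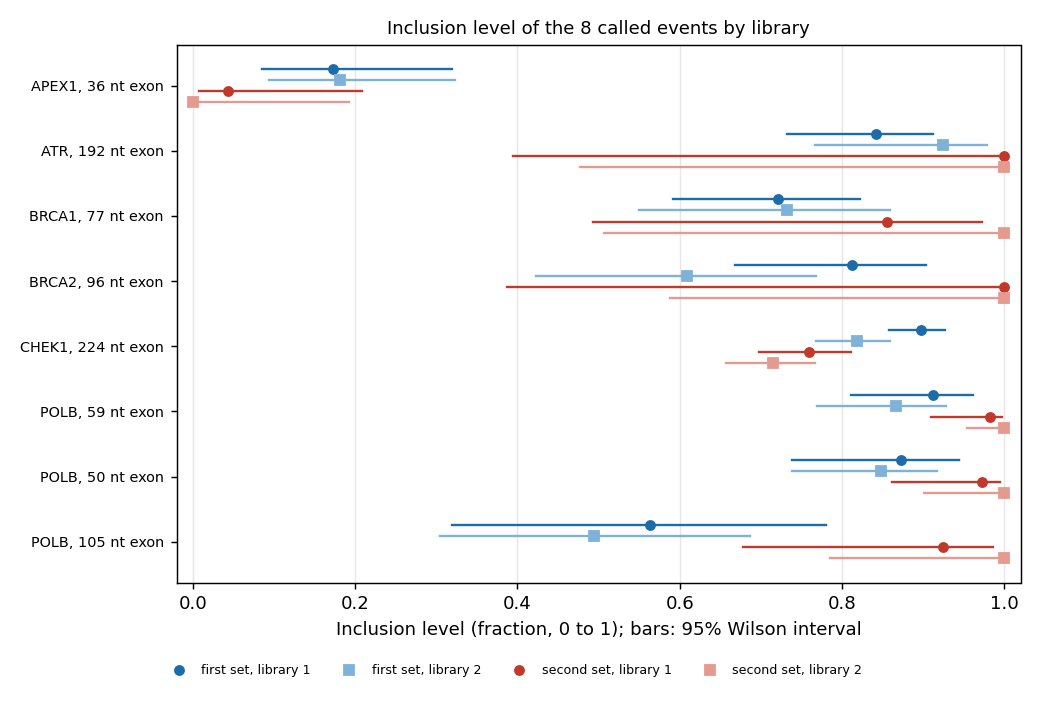
Inclusion level (x axis, 0 to 1) of the 8 called events in each library, with bars for the 95% Wilson interval from the reads; blue marks the first set and red the second. In every event the points of the sets do not overlap, but in all 8 at least 1 bar of the first set overlaps 1 of the second. The bars of the second set are widest in ATR, BRCA1 and BRCA2, from 4 to 10 reads.

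MUTYH, the glycosylase that removes adenine paired with oxidised guanine, had more events of FDR under 0.05 in the authors' deposited table than any other member, 7 of 22, none of them at a difference of 0.1. Of these, 4 are forms of 1 exon that share an end at position 45799085 on chromosome 1 and a skipping junction with 5, 3, 0 and 0 reads. Their differences in the authors' deposited table ran from -0.065 to -0.093. The 152 nt form, with 84 to 125 inclusion reads, had levels of 0.898 and 0.933 in the first set and 1 in both libraries of the second. In the other direction, a 114 nt exon of MUTYH was at 1 and 0.985 in the first set and at 0.968 and 0.834 in the second (difference 0.091, FDR 0.00597 in the authors' deposited table). Without library 2 of the second set that difference was 0.0245. Another event of the 114 nt exon stood at -0.016 in the authors' deposited table. The differences in MUTYH thus ran both ways within the gene.

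OGG1, the glycosylase for oxidised guanine, had 2 such events of opposite sign in the authors' deposited table, on exons of 182 nt (0.052, FDR 0.0183) and 151 nt (-0.063, FDR 0.0161). Other events of the 182 nt exon stood at -0.031, 0.003, -0.001 and 0.01, and of the 151 nt exon at 0.007 and 0.008. The sign thus differed between events of the same exon. UNG removes uracil from DNA. Its 96 nt coding exon had no skipping read in 3 libraries, from 1013 to 1417 reads, and 24 in library 2 of the second set, for a level of 0.964, and it had the lowest quasi-binomial p of all members, 0.00209, unadjusted, with a difference of 0.018. LIG1, the ligase of replication and long-patch repair, kept an 86 nt coding exon at chr19:48637238-48637323 at 0.842 and 0.891 in the first set against 0.793 and 0.856 in the second, from 415 to 459 reads (difference 0.042, FDR 0.456 in the authors' deposited table). XRCC1, the scaffold of single-strand break repair, kept a 111 nt exon at chr19:44065062-44065172 at 0.970, 0.938, 0.929 and 0.940 (difference 0.019, FDR 0.704 in the authors' deposited table). The sets overlapped in both. PARP1, which marks strand breaks with poly(ADP-ribose), had 2 events with 5351.25 and 6683.75 reads on average and a difference of 0 in each.

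Nucleotide excision repair genes were tested on 53 events, with no call and 3 of FDR under 0.05. ERCC1 forms the nuclease that makes the cut on the 5′ side of a lesion, together with its partner XPF. Isoforms of ERCC1 that lack its eighth exon are known and do not support excision repair. This exon, 72 nt at chr19:45917221-45917292 (hg19, minus strand), is the deepest exon of intermediate inclusion in its class and is shown for that reason (capitals and flanks as above):
ERCC1 exon 8: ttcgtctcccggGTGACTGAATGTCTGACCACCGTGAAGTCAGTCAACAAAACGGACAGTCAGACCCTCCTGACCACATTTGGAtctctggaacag
The inclusion and skipping reads were 332 and 88, then 422 and 86, in the first set and 544 and 101, then 541 and 53, in the second. Inclusion stood at 0.718 (0.668 to 0.763) and 0.768 (0.724 to 0.807) against 0.784 (0.746 to 0.818) and 0.873 (0.839 to 0.901). The sets did not overlap, but the intervals of library 2 of the first set and library 1 of the second did. The authors' deposited table lists -0.086 at FDR 0.0473, and the quasi-binomial p was 0.0430, adjusted p 0.865. Without library 2 of the second set the difference was -0.0412, less by over 1.5 times. Loss of this exon keeps the frame.

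A 100 nt exon of ERCC1 at chr19:45918119-45918218 was at 0.906, 0.903, 0.878 and 0.944 (difference -0.006, FDR 1 in the authors' deposited table). A 69 nt exon at chr19:45916935-45917003 was at 0.595 and 0.664 in the first set against 0.615 and 0.391 in the second. Its difference of 0.126 (FDR 0.539 in the authors' deposited table) was 0.0148 without library 2 of the second set. ERCC2, a helicase of the repair and transcription factor TFIIH, had, in the authors' deposited table, a 70 nt exon at -0.031 (FDR 0.0219) and a 169 nt exon at 0.041 (FDR 0.0205).

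In the genes that sense breaks (MRE11A, RAD50 and NBN, 20 events) no exon was called. MRE11A encodes the nuclease of the complex. Its exon of 84 nt at chr11:94178976-94179059 (hg19, minus strand) is listed also in a form of 81 nt that ends at 94179056, and both are shown since they differ only by 3 bases, CAG, at the start (capitals and flanks as above):
MRE11A 84 nt form: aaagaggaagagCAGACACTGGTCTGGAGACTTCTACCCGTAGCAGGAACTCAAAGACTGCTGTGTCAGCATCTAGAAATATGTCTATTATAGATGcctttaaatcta
MRE11A 81 nt form: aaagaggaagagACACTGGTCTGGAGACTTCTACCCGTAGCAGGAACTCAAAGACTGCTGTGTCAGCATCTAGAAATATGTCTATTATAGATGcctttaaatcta
They share their skipping reads, 9, 23, 3 and 11. The 84 nt form had levels of 0.958 and 0.895 in the first set against 0.983 and 0.903 in the second. The 81 nt form had 0.895 and 0.801 in the first set against 0.967 and 0.803 in the second. In both forms library 1 was higher than library 2 in each set by more than the sets differed. The authors' deposited table lists -0.017 (FDR 0.688) and -0.037 (FDR 0.644).

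NBN, the adaptor of the complex, had a non-coding 50 nt exon at chr8:90994181-90994230 with the largest difference of the class, -0.194 (FDR 0.237 in the authors' deposited table). It was kept at 0.147 (0.109 to 0.195), 0.140 (0.0977 to 0.196) and 0.160 (0.101 to 0.243) in 3 libraries and at 0.514 (0.398 to 0.629) in library 2 of the second set. The difference was thus carried by that library, and without it came to -0.0163. The quasi-binomial p was 0.0234. An exon of RAD50, 186 nt and coding, was at 1 in 3 libraries and 0.75 in library 2 of the second set, from 21 reads.

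Fanconi anaemia genes gave 96 events on 75 exons, the second largest class, of which 20 were intermediate and 0 called. FANCA, a subunit of the core complex, had an alternative exon of 139 nt at chr16:89809208-89809346, with levels of 0.851 and 0.855 in the first set against 0.868 and 0.872 in the second, from 509 to 560 reads (difference -0.017, FDR 1 in the authors' deposited table). Its loss shifts the frame. FANCI, which is ubiquitinated with FANCD2 at crosslinks, kept a 185 nt exon at chr15:89849241-89849425 at 0.873, 0.918, 0.893 and 0.969 (difference -0.036, FDR 0.296 in the authors' deposited table). A 180 nt coding exon of FANCI, absent from a known shorter FANCI form, had the only FDR under 0.05 of the class in the authors' deposited table, 0.000493, at a difference of 0.053. Its levels were 0.972, 0.990 and 0.972 in 3 libraries and 0.883 in library 2 of the second set, and the difference without that library was 0.00831. The sets overlapped.

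End joining genes were tested on 29 events with no call. XRCC6 encodes Ku70, which binds broken ends with Ku80, the product of XRCC5. XRCC6 was the deepest member, with 3534 to 13201 reads per event and differences from -0.003 to 0. The 3 XRCC5 events differed by 0 to 0.001. POLQ encodes the polymerase of microhomology-mediated joining. Its 185 nt exon at chr3:121178897-121179081 was at 0.831 and 0.812 in the first set against 0.796 and 0.678 in the second, and the authors' deposited table lists 0.084 at FDR 0.363. Without library 2 of the second set the difference was 0.0251. Its 175 nt exon at chr3:121190837-121191011 was at 1, 0.963 and 1 in 3 libraries and 0.802 in library 2 of the second set. A 138 nt exon of POLQ went the other way in 1 event, at 0.945 and 0.886 against 1 and 1 (difference -0.085, FDR 0.00834 in the authors' deposited table). Another event of that exon stood at 0.042.

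RecQ helicases (35 events) and mismatch repair genes (15 events) had neither a call nor an FDR under 0.05. RECQL had a 203 nt non-coding exon at chr12:21654104-21654306 with levels of 0.942, 0.762, 0.953 and 0.871, from 42 to 133 reads. RECQL5 kept a 74 nt exon at chr17:73626699-73626772 at 0.930, 0.931, 0.935 and 0.877. PMS2, the endonuclease subunit of mismatch repair, kept a frame-keeping 156 nt exon at chr7:6029431-6029586 at 0.919 and 0.964 against 0.908 and 0.908. PMS2 has near-identical pseudogene copies, so its reads may be shared with them and its values are uncertain. All 8 WRN events were lower in the first set, by 0.008 to 0.082, with no FDR under 0.05 in the authors' deposited table. They had means of 27.75 to 75 reads, and 2 of them shared a skipping junction. Among members with several events, all of LIG3 (8) and MRE11A (6) were also lower in the first set. All of XRCC1 (4), XPA (3) and MSH3 (2) were higher there. This was not counted over all genes.

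**Figure D3:**
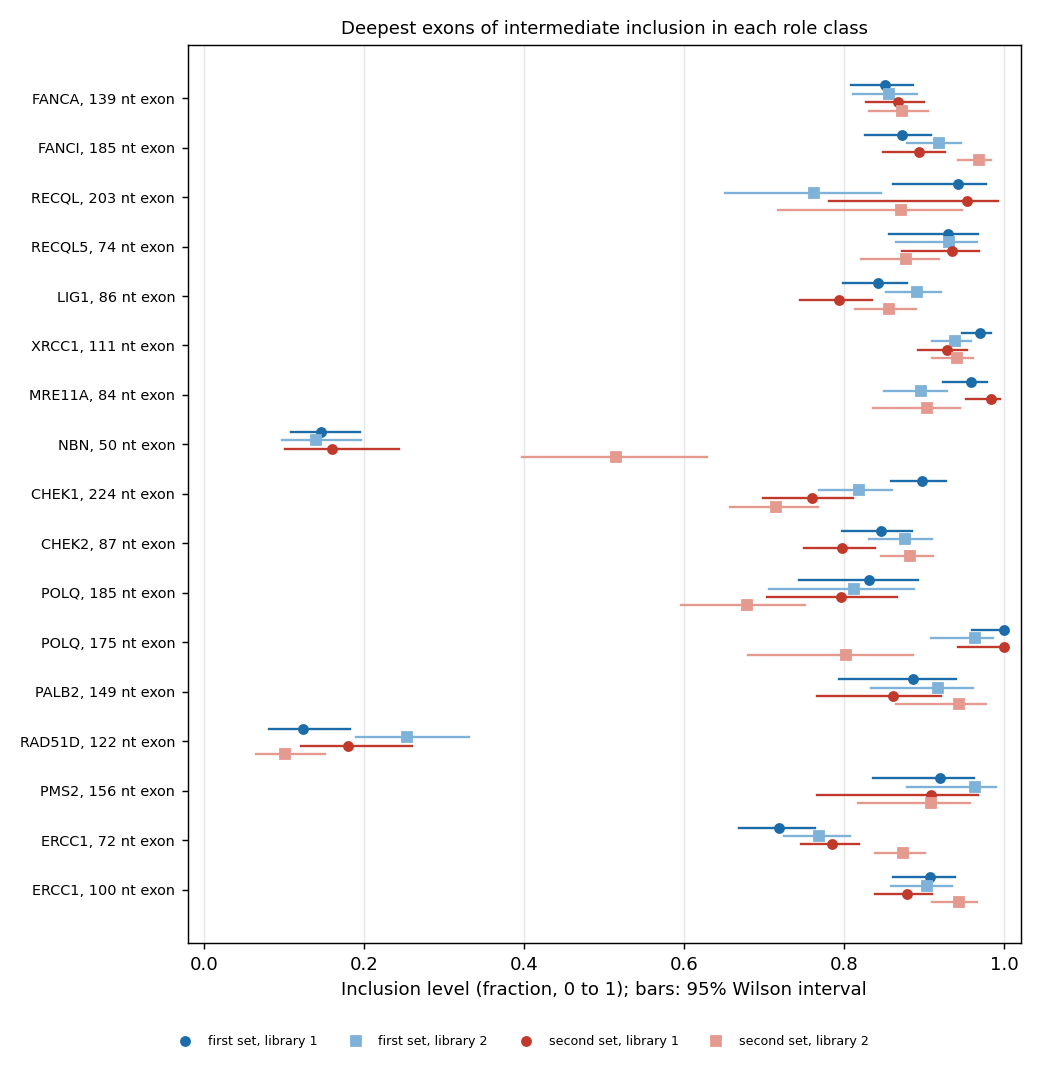
Inclusion level (x axis, 0 to 1) by library for the 2 deepest exons of intermediate inclusion in each role class (1 in mismatch repair), with 95% Wilson intervals; blue marks the first set and red the second. FANCA lies between 0.851 and 0.872 in all libraries, whereas NBN and the POLQ exon of 175 nt have library 2 of the second set away from the other 3.

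Beyond the 8 calls, 19 member events had an FDR under 0.05 in the authors' deposited table with a difference under 0.1. The total of 27 (5.79%) compares with 5.72% of all tested events. Of the 27, the first set was higher in 11 and lower in 16. Base excision and single-strand break repair genes, with 107 of the 466 tested events, held 15. Of these 15, 4 forms of a MUTYH exon shared a skipping junction, as did 3 POLB events and 2 APEX1 events. All 27 rested on 21 skipping junctions, and 13 of the 27 had no skipping read in library 2 of the second set. Without that library 5 of the 27 differences, in FANCI, ERCC1, ERCC2, PALB2 and MUTYH, shrank by more than 2 times, and none changed sign. In 36 of the 50 genes every tested difference lay under 0.1.

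Other genes of the same pathways, 113 listed by name and 96 with tested events, were counted beside them. Of their 727 events, 13 (1.79%) were called, in 10 genes, with the first set higher in 7 and lower in 6. The median absolute difference over all members was 0.0119, over those other repair genes 0.0106 and over all tested events 0.0114.

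The reading frame was followed for 279 coding events. Loss of the exon kept the frame in 107 and shifted it in 172, and in 167 of the latter a stop was counted before the normal one. In 155 this stop lay more than 50 nt before the last exon junction, the position that as a rule marks a transcript for decay. Stops were sought from the first annotated coding base, without a check that they lay after the skipped exon. The 185 nt exon of FANCI lies 435 nt from the transcript end, but its counted stop is codon 68 of 1089, 2831 nt before the last junction. That stop lies before the exon and does not come from its loss. Both counts include it, and other events of this kind were not counted. Among the events of intermediate inclusion 20 kept and 22 shifted the frame. The median inclusion level was 0.989 for exons that keep the frame and 0.991 for those that shift it.

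The number of reads on the members also differed between the sets; no test was run on it. Junction reads per 1000000, summed over a gene's events, were lower in both libraries of the second set than in both of the first in 38 of the 50 genes (76%), against 60.9% of all 9999 genes. They were higher in 4 (8%), RAD51C, ERCC1, XRCC6 and NTHL1, against 13.8%. BARD1, the partner of BRCA1, had the lowest ratio, 0.194, at 10.2 and 6.15 reads per 1000000 in the first set against 1.68 and 1.5 in the second. ATM followed at 0.272, from 27.6 and 17.4 against 5.46 and 6.81, and BRCA2 at 0.287, from 4.84 and 4.23 against 1.17 and 1.43. Of ERCC1 the second set held more, 171.2 and 176.0 reads per 1000000 against 122.8 and 145.8. These sums count reads at skipped exon events, some of them more than once, and are no gene expression test. The 293T marker CDH2 was lower in the second set too, and VIM higher, by the reads given above, and their part in this was not tested. In RNA of whole cultures, less RNA per cell and fewer cells that make it cannot be told apart. The ratio of the sets also went with the distance of the exon from the transcript end, as given below. The part of that distance in these gene sums was not tested.

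**Figure D4:**
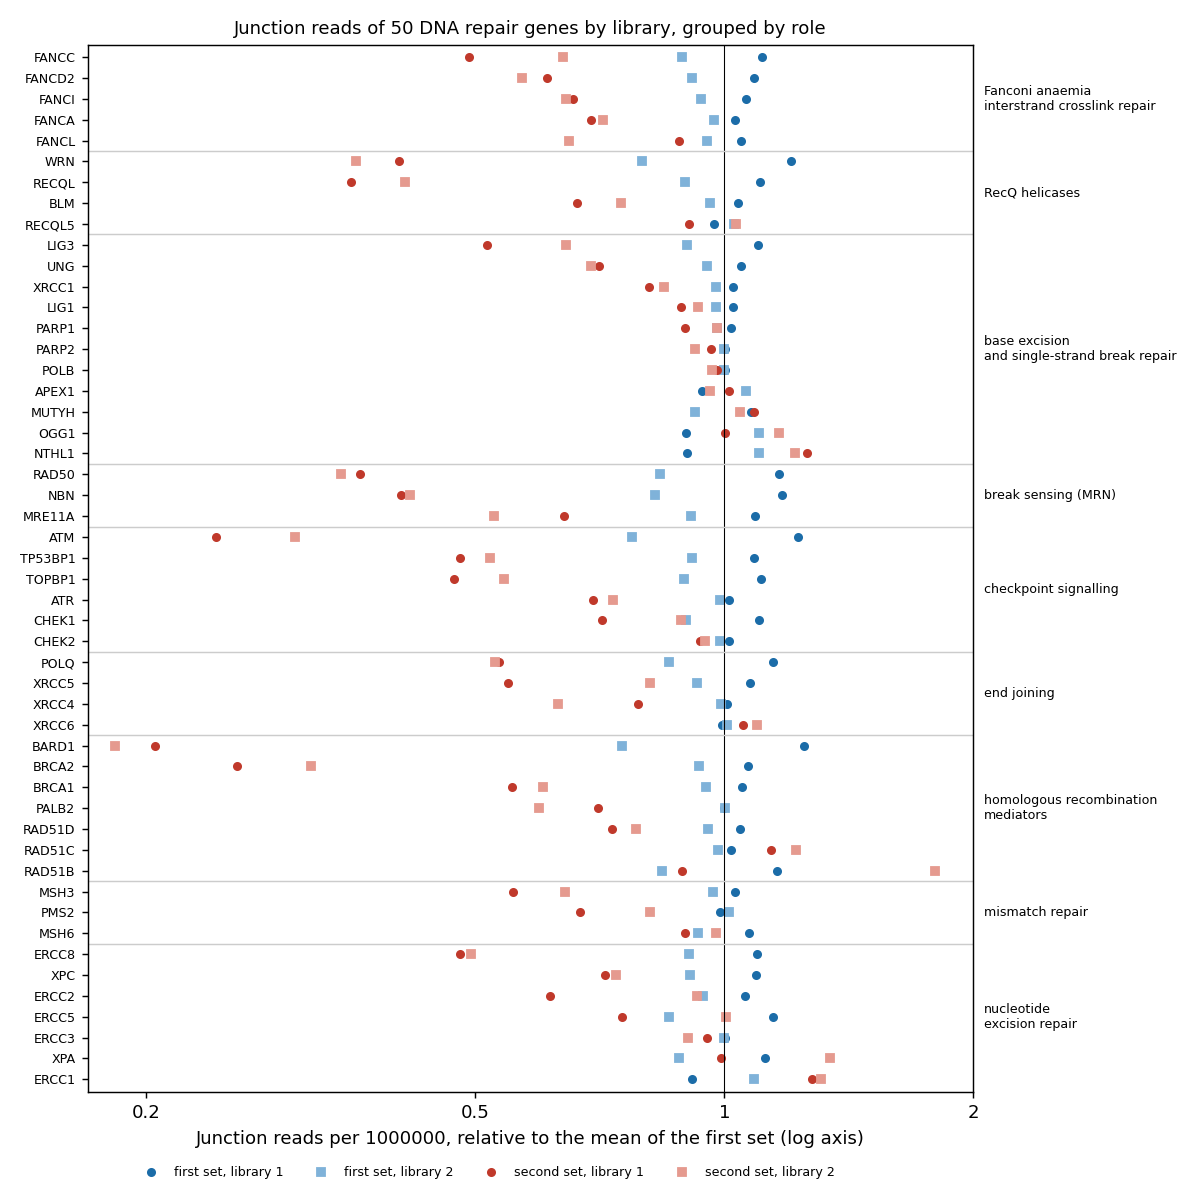
Junction reads per 1000000 of the 50 member genes with tested events (1 line per gene, grouped by role), each library relative to the mean of the first set, on a log axis. The second set, in red, lies lowest for BARD1, BRCA2 and ATM and to the right of the first set for RAD51C, ERCC1, XRCC6 and NTHL1.

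The ratio of second to first set was lower the farther the exon lay from the 3′ end of its transcript. For exons less than 1000 nt from the annotated end it was 0.930 (median of 172 member events; all tested events 0.992). It was 0.701 at 2000 to 3000 nt (69 events), 0.378 at 4000 to 6000 nt (44 events) and 0.208 beyond 6000 nt (30 events; all tested events 0.388). Both libraries of the second set showed it, at 0.219 and 0.231 beyond 6000 nt. Within the first set, library 2 over library 1 went from 0.981 in the nearest exons to 0.569 in the farthest, and within the second set from 1.03 to 1.18. The called exons of ATR (6586 nt from the end), BRCA1 (6368 nt), BRCA2 (4816 nt) and CHEK1 (2967 nt) lie far from it, and the first 3 are those with 4 to 10 reads in each library of the second set. The other 4 calls lie within 1000 nt of the end of the matched transcript, those of POLB at 839, 789 and 365 nt and that of APEX1 at 118 nt. The part of this distance in these calls was not tested. Each distance depends on the transcript matched. That of the APEX1 call has 3 exons and 41 codons, so the distance may differ in other APEX1 transcripts. In ERCC1 the 72 nt and 100 nt exons, matched to different transcripts, lie 2462 and 181 nt from the end.

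**Figure D5:**
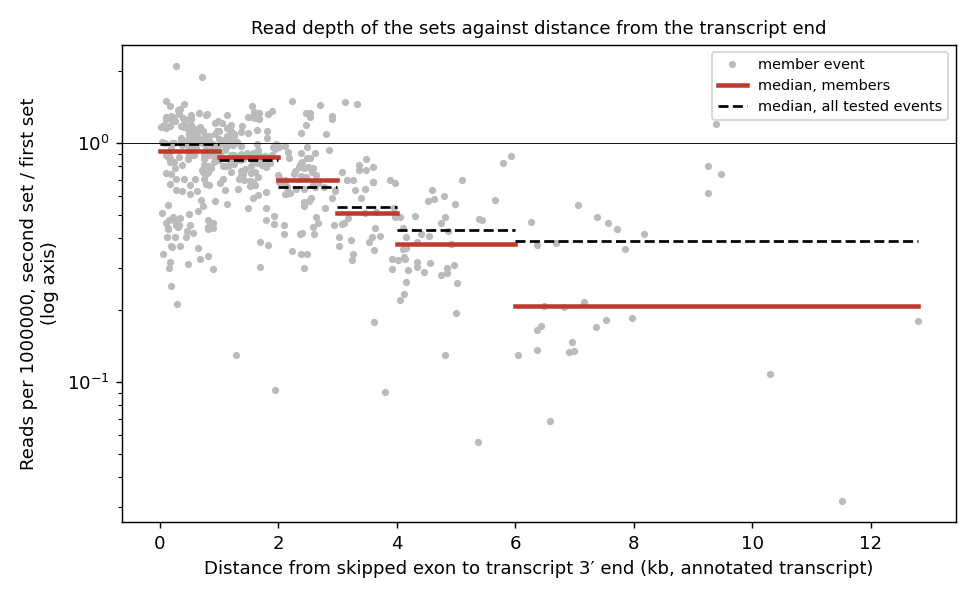
Ratio of second to first set in reads per 1000000 (y axis, log) against the distance of the skipped exon from the annotated 3′ end of its transcript (kb), 1 grey point per member event; solid lines are medians of members and dashed lines of all tested events in each distance range. The members' median goes from 0.930 nearest the end to 0.208 beyond 6000 nt.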

How the data were processed

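Skipped exons were analysed in 4 poly(A) RNA libraries of 293T cells (paired reads, 150 bases). Per the submitters' processing notes, cutadapt, STAR and hg19 were used, with no versions; versions and settings of the splicing program are not given in the sources used here. Per the file headers the table has the layout of rMATS for skipped exons. The deposited table gives counts of inclusion and skipping junction reads, the inclusion level as a fraction, the difference between sets as a score from -1 to 1 (first minus second), and p-values with their FDR, all made by the authors.

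Levels computed anew from the reads lay within 0.0005 of those deposited. Events with a mean of at least 20 reads over the libraries were kept. Calls use the authors' FDR under 0.05 and a difference of at least 0.1. A quasi-binomial model per event was fitted to all 54503 tested events in R 4.3.3, with its dispersion moderated by limma 3.58.1 (squeezeVar), never under 1, and Benjamini-Hochberg adjustment over all of them. The prior of the dispersion was taken from events whose rarer form had on average at least 5 reads per library, a choice made on simulated data. On simulated data with 200 events changed by 0.3 among 54503, the model found 164 with binomial noise and 72 with the scatter measured in these libraries, and limma on the log2 ratio of reads (pseudocount 0.5) found 0 in both, so a limma count of 0 carries no information on the number of changed exons. Wilson intervals (95%) and depth cover counting error only, since the reads carry no molecular identifiers. The dispersion prior (3.78) carried 81.7 degrees of freedom. Quasi-binomial p-values thus rest mostly on the scatter among libraries pooled over events, and little on that of an event's own 2 libraries per set. Exons were matched to GENCODE 29 by gene identifier and exon spacing (466 of 466 members) for annotation, frame and sequence; positions are those of the table, hg19, 1-based. Python 3.11.15 with pandas 2.3.3 was used for the rest.

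The members, the list of other repair genes, the tests and the alternatives were chosen with earlier results of these data known. Named events are the called ones, any past an adjusted p of 0.05 by the quasi-binomial test, the 2 deepest exons of intermediate inclusion in each of 9 role classes, and the 5 largest differences among events with at least 100 reads in every library, which gave 26 events in 20 genes; others are named after their values were seen. The set that received the ASO is not identified in the table.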

Additional observations from a re-analysis of the deposited data

How the results depend on the processing

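The count of 8 called member events moved with the thresholds: it was 13 at a read minimum of 10, 17 without a minimum and 3 at a minimum of 50, 22 at a difference of at least 0.05 and 3 at 0.2. Adjusting over the tested events only left it at 8. With 1 event per exon, the deepest, it was 4, and with 1 event per skipping junction, an alternative added after seeing the data, 5. Leaving out each library in turn, with a difference of at least 0.1 still required, gave 6 to 8. ATR and CHEK1 were lost without first-set library 1, and a POLB event without first-set library 2. Without second-set library 2 a POLB event and CHEK1 were lost. The FDR stayed that of all libraries, as no other is available, so only the size of the difference was checked again. The quasi-binomial count was 0 at the other read minimums and with a trended prior. The limma count was also 0 with pseudocounts of 0.5 and 1. At 0.5 limma found 0 of 200 changed events on simulated data, so its 0 carries no information. A quasi-binomial fit with a library left out leaves 1 in its set, which is then assumed to vary like the others. No count is given for such fits. Of 156 alternative values for the 26 named differences, 146 were counted as within the spread between libraries. The other 10 were counted as moved, 7 without the correction for form lengths and the rest, in ATR and BRCA2, with a library left out. Leaving out 1 of 2 libraries cannot shift a difference by more than that spread, so such values could not show instability, and the rest only equalled it. Of the values that could, 7 of 26 moved without the length correction and 26 of 26 stayed with summed reads. The sign changed in 0 of the 8 called values, where leaving out a library could not change it since the sets did not overlap. Without the length correction 4 of the 8 (CHEK1, ATR and 2 of POLB) came under a difference of 0.1. Of the 18 named differences that were not called, 9 changed sign under at least 1 alternative, in CHEK2, RECQL5, RAD51D, MRE11A, POLQ, PALB2, FANCI, RECQL and ERCC1. A planned count model of another kind was not run. No paired analysis was possible because the table does not tie its libraries to the replicate numbers of the labels. Few reads lie behind some calls: those in POLB (105 nt), BRCA2 and APEX1 have means of 21.5, 25.5 and 25.75 reads per library.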
